A study of Homo sapiens with 12 samples.

Results

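The genes described here encode apolipoproteins, the protein parts of plasma lipoproteins, and MTTP, which loads lipid onto 1 of them. They are APOA1, APOA2, APOA4, APOB, APOC1, APOC3, APOE, APOH, APOM and MTTP, 10 of the 58174 genes that each deposited table lists. In the study, Hep-G2 cells, a line derived from a hepatoblastoma of the liver, and BE(2)-C cells, a neuroblastoma line, received a control siRNA (siC) or a pool of siRNAs against the RNA-binding protein IGF2BP1 (siI1). Poly-A RNA was taken 72 h later and sequenced, with 3 libraries in each of the 4 groups and 12 in all.

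Lipoproteins carry lipids through blood, and the liver makes most of their protein. APOB is the scaffold of very-low-density lipoprotein (VLDL) and of the LDL that arises from it, and it needs the microsomal triglyceride transfer protein MTTP to be secreted. APOA1 and APOA2 are the main proteins of high-density lipoprotein (HDL), while the smaller APOC proteins, APOE and APOM move between particles.

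The unit is FPKM, reads scaled to gene length and library size, which the authors scaled with the TMM factors of edgeR within each cell line. Between 12852988 and 15721210 reads per library fell on genes. Where at least 3 of a cell line's 6 libraries reached 0.1 FPKM, a gene was tested on the log2(FPKM + 0.1) scale with limma, and a gene is called higher or lower where its Benjamini-Hochberg adjusted p over all tested genes was below 0.05. The study calls the replicates biological, but whether each was a separate culture is not given in the sources used here, so p-values measure only the spread between these libraries. Levels were not compared across the cell lines, since their tables were normalised separately.

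Hep-G2 siI1 replicate 1 stood apart from its group. The chi-square per gene between 2 libraries, which is 1 where they differ by counting error alone, was 13.8 against replicate 2 and 14.3 against replicate 3, while replicates 2 and 3 gave 1.98. The Hep-G2 siC libraries gave 2.28 to 5.32. This siI1 library had the lowest siI1 value for 7 of the 10 members. Across 10626 genes, deviations from the siI1 mean correlated with gene length at 0.50 in it and at -0.42 and -0.40 in the others (Spearman), and at 0.33, -0.40 and 0.16 in siC. Results without it are given beside the main ones.

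The targeted gene itself was low in every siI1 library. IGF2BP1 stood at 48.5, 46.6 and 50.8 FPKM with siC and 12.6, 10.7 and 10.7 with siI1 in Hep-G2. In BE(2)-C it had 21.3, 20.6 and 21.6 FPKM with siC and 4.85, 4.75 and 4.87 with siI1. All 6 siI1 libraries lay far below the siC libraries of their line. The log2 fold changes were -2.10 (standard error 0.08) and -2.11 (standard error 0.05), with limma adjusted p of 7.8e-06 and 1.5e-05.

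Most members were higher with knockdown in Hep-G2. Of the 10, all tested, 7 were higher, 2 lower and 1 not called, where 21.9% of all 19436 tested genes were higher and 23.0% lower. The siC and siI1 libraries did not overlap for 9 members, as for 55.8% of all tested genes. The median log2 fold change was 1.13 over the members and 0.01 over all tested genes. Without siI1 replicate 1 the members' median was 1.21, with 7 higher and 3 lower, and with the length trend removed 0.87, with 7 and 2. In BE(2)-C, 0 of the 3 members that could be tested were called by limma, where 13.3% of all 18656 tested genes were higher and 14.8% lower. The change differed between the cell lines for 3 of 3 members tested in both, where 40.2% of all 15362 such genes differed.

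APOA1, APOC3 and APOA4 lie side by side on chromosome 11 of hg38. APOA1, which activates the enzyme that esterifies HDL cholesterol, spans 116835751 to 116837622 on the minus strand (ENSG00000118137). It measured 1190, 1335 and 1222 FPKM with siC and 3320, 4392 and 4604 with siI1. Every siI1 library was far above every siC library, and siI1 replicate 1 was the lowest of its group. The ratio of means was 3.29, and the log2 fold change 1.70 (standard error 0.17, limma adjusted p 2.8e-04), or 1.85 (4.7e-05) without siI1 replicate 1. By level, APOA1 moved from rank 8 to rank 3 among 19799 protein-coding genes.

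APOC3, an inhibitor of triglyceride-rich lipoprotein clearance, lies from 116829706 to 116833072 on the plus strand (ENSG00000110245). With siC it had 35.4, 38.9 and 33.0 FPKM, and with siI1 394, 505 and 531. All siI1 libraries were above all siC libraries. The means differed 13.3-fold, a log2 fold change of 3.72 (standard error 0.12, limma adjusted p 4.9e-06), and 3.85 (8.6e-06) without siI1 replicate 1. This was the 5th highest log2 fold change among 12823 tested protein-coding genes of Hep-G2, and it took the gene from rank 1215 to rank 46 by level.

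APOA4, better known as a product of the intestine, lies from 116820700 to 116823304 on the minus strand (ENSG00000110244). It was low, at 3.28, 3.29 and 3.41 FPKM with siC and 5.97, 6.39 and 7.92 with siI1, on 66 to 156 reads per library. All siI1 libraries were above all siC libraries, which were close together. The log2 fold change was 0.99 (standard error 0.11, limma adjusted p 5.5e-04), and 1.08 (5.1e-04) without siI1 replicate 1.

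APOE and APOC1 are neighbours on chromosome 19. APOE, a ligand of lipoprotein receptors, lies from 44905791 to 44909393 on the plus strand (ENSG00000130203). It had 940, 1053 and 992 FPKM with siC and 2189, 2783 and 2931 with siI1. The groups did not overlap, and siI1 replicate 1 was again the lowest siI1 library. Its log2 fold change was 1.39 (standard error 0.15, limma adjusted p 3.9e-04), a 2.65-fold difference of means, and 1.52 (6.3e-05) without that library. APOE went from rank 13 to rank 4 by level.

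APOC1, a small exchangeable apolipoprotein, lies from 44914247 to 44919349 on the plus strand (ENSG00000130208). It measured 155, 188 and 170 FPKM with siC and 608, 868 and 898 with siI1. The lowest siI1 library was well above the highest siC library. Its log2 fold change of 2.19 (standard error 0.16, limma adjusted p 8.1e-05) stood for 4.63-fold higher means, and was 2.37 (2.0e-05) without siI1 replicate 1. Only APOC3 among the members had a higher log2 fold change.

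APOH, or beta-2-glycoprotein I, binds phospholipids and lies on chromosome 17 from 66212033 to 66256525 on the minus strand (ENSG00000091583). Its libraries held 1003, 1034 and 1010 FPKM with siC and 2197, 2543 and 2622 with siI1. The siC libraries were nearly equal, and all siI1 libraries were above them. The log2 fold change was 1.27 (standard error 0.12, limma adjusted p 2.3e-04), a 2.42-fold difference of means, and 1.35 (5.1e-05) without siI1 replicate 1.

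APOA2 and APOM went the other way. APOA2, on chromosome 1 from 161222292 to 161223631 on the minus strand (ENSG00000158874), had 2334, 2721 and 2467 FPKM with siC and 1125, 1496 and 1545 with siI1. The groups were apart, with every siI1 library below every siC library. Its log2 fold change was -0.86 (standard error 0.16, limma adjusted p 0.0052), with means 1.81-fold lower, and -0.72 (0.0017) without siI1 replicate 1. It was the most abundant member with siC, at rank 4 of the protein-coding genes, and came to rank 13 with siI1.

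APOM, the carrier of sphingosine 1-phosphate on HDL, lies on chromosome 6 from 31652416 to 31658210 on the plus strand (ENSG00000204444). The siC libraries had 4.07, 3.89 and 3.19 FPKM and the siI1 libraries 0.668, 0.579 and 0.676, from 14 to 105 reads. All siI1 libraries were close together and far below siC. The means were 5.80-fold lower and the log2 fold change was -2.36 (standard error 0.15, limma adjusted p 4.2e-05), or -2.39 (1.2e-04) without siI1 replicate 1 and -1.52 (4.5e-05) with pseudocount 1. APOM shares 290 positions of its gene span, introns included, with BAG6 on the opposite strand. BAG6 was not called (log2 fold change -0.18, limma adjusted p 0.13). With equal sums of FPKM, BAG6 was called lower (-0.34, limma adjusted p 0.01).

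The 2 members that build VLDL did not change together. APOB, on chromosome 2 from 21001429 to 21044073 on the minus strand (ENSG00000084674), had 611, 496 and 580 FPKM with siC and 512, 366 and 383 with siI1. The groups overlapped, because siI1 replicate 1 was above the lowest siC library, and replicates 2 and 3 were below all of siC. The log2 fold change of -0.43 (standard error 0.15, limma adjusted p 0.055) was not called, whereas without siI1 replicate 1 it was -0.58 (0.0041) and called lower. APOB exons cover 14828 nt and those of the other apolipoproteins among the members 866 to 2191 nt. With genes split into 4 groups by length, the Hep-G2 median log2 fold change went from 0.15 in the shortest to -0.21 in the longest. With a length trend removed from each library, an alternative chosen after seeing the data, APOB was at -0.17 (0.11), and the other 9 members kept direction and call.

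MTTP lies on chromosome 4 from 99564081 to 99623997 on the plus strand (ENSG00000138823). It had 11.6, 11.5 and 12.7 FPKM with siC and 17.2, 15.4 and 14.6 with siI1. The siI1 libraries were all above the siC libraries, by a small margin. The log2 fold change was 0.39 (standard error 0.08, limma adjusted p 0.0062) and 0.33 (0.0066) without siI1 replicate 1. It was the only member call lost under a scaling tried, at 0.23 (0.12) with equal sums of FPKM per library, a scaling that moved the median of all genes to -0.15.

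**Figure D1:**
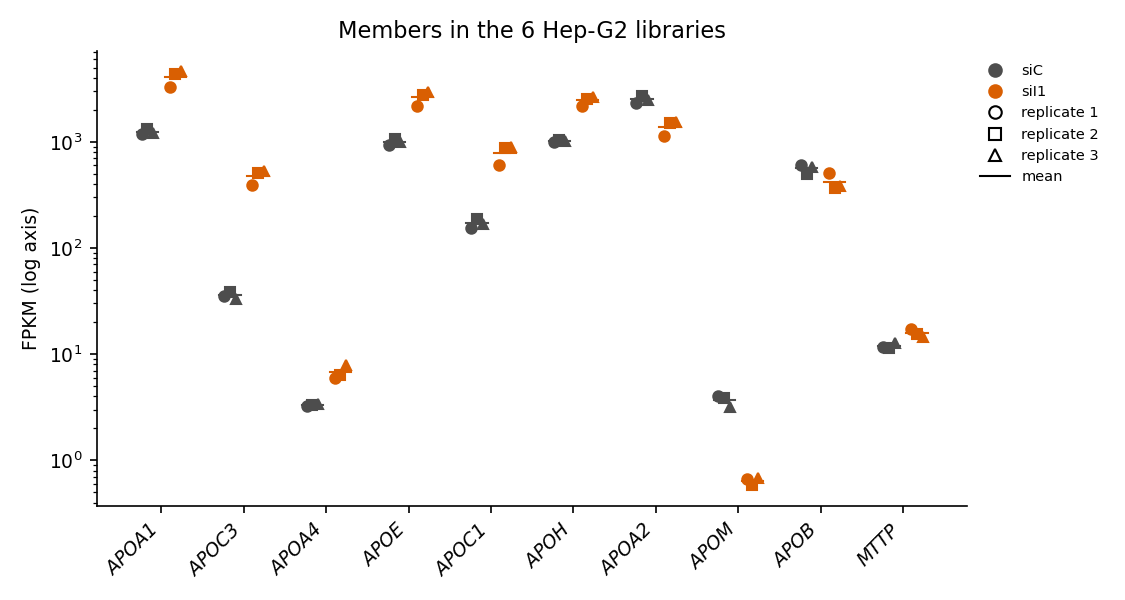
FPKM (log axis) of the 10 members in each Hep-G2 library. Points are libraries, with siC in grey and siI1 in orange and a shape for each replicate, and short lines are group means. APOC3 shows the widest gap, from 33.0 to 38.9 with siC to 394 to 531 with siI1, APOA2 and APOM are lower with siI1, and APOB overlaps.

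Some reads may belong to overlapping genes. Shared positions are those of whole gene spans, introns included, so they do not measure how many exon bases are shared. The antisense transcript APOA1-AS shares 1506 such positions with APOA1, whose exons cover 1424 nt. It had 25.6, 45.9 and 28.7 FPKM with siC and 67.2, 125 and 140 with siI1. It was high in the same libraries as APOA1. The libraries are strand-specific per the labels, but the strand setting of the read counting is not given, so reads of the 2 strands may be mixed. A TEC gene, an unverified transcript, overlaps APOC1 and APOE and had at most 0.687 FPKM, and a long noncoding RNA on the other strand of MTTP had at most 0.567. Another TEC gene shares 675 positions with APOB on the other strand and had at most 1.53 FPKM. A long noncoding RNA shares 842 positions with APOA4 on the other strand. It is not among the genes listed, so its level is not known.

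Ratios within a library do not depend on its scaling, though a trend with gene length does not cancel from them. The FPKM ratio of APOA1 to APOA2, the HDL proteins, came to 0.510, 0.491 and 0.495 with siC and to 2.95, 2.94 and 2.98 with siI1. It hardly varied inside either group, although both genes were low in siI1 replicate 1, and APOA1 went from the lesser to the greater of the pair. APOC3 over APOA1 came to 0.0298, 0.0291 and 0.0270 with siC and to 0.119, 0.115 and 0.115 with siI1. APOC1 over APOE came to 0.165, 0.178 and 0.171 with siC and to 0.278, 0.312 and 0.306 with siI1. In these 2 pairs the less abundant gene gained on the more abundant one. That did not hold for every gene of the clusters. APOA4 rose less than APOA1 (log2 fold changes 0.99 and 1.70), and APOC2 and APOE were close (1.33 and 1.39). APOB over MTTP came to 52.5, 43.3 and 45.6 with siC and to 29.9, 23.8 and 26.2 with siI1, so this ratio did not overlap although APOB itself did. The exons of these genes cover 14828 and 5398 nt, so this ratio can carry the length trend of a library. With that trend removed, the log2 fold changes of APOB and MTTP were -0.17 and 0.49.

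The members together took a larger part of the Hep-G2 transcriptome after knockdown. Their summed FPKM made up 2.49%, 2.60% and 2.51% of the library with siC and 3.79%, 4.36% and 4.50% with siI1. Every siI1 share was above every siC share (exact permutation test, two-sided p 0.1, the smallest that 3 against 3 libraries allow). As a share of reads, which weights long genes more, the values were 1.70%, 1.60% and 1.67% against 2.25%, 2.37% and 2.44%, again without overlap (exact permutation p 0.1). The make-up changed as well. APOA2 gave 38.2% of the members' FPKM with siC and 11.3% with siI1, and APOA1 19.1% and 33.4%. Of the members' reads, APOB held 51.1% with siC and 26.2% with siI1.

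**Figure D2:**
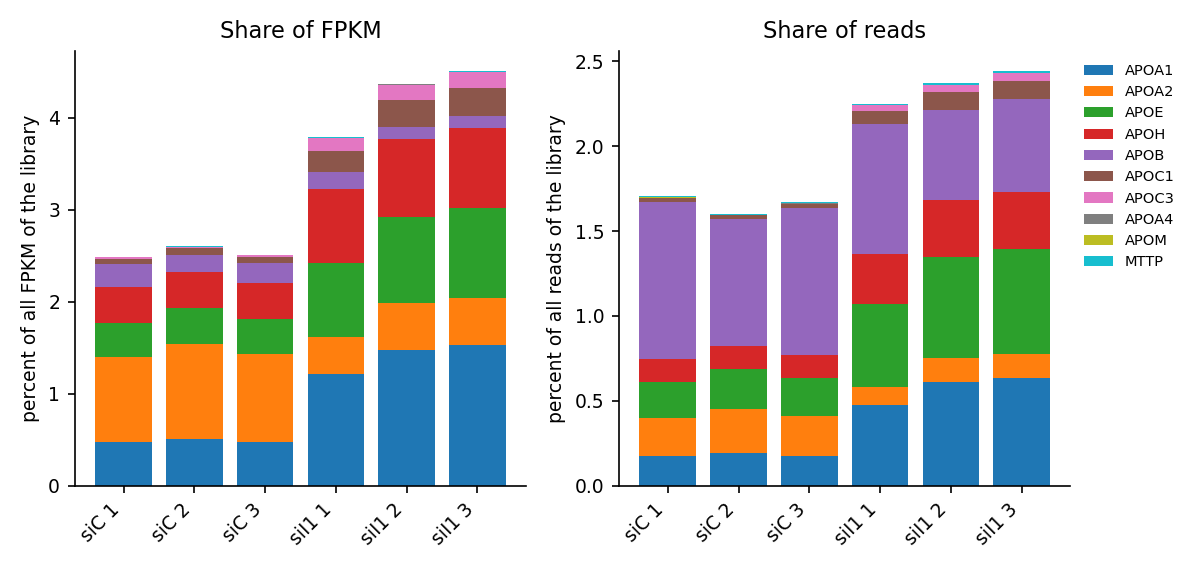
Percent of all FPKM (left) and of all reads (right) taken by each member in the 6 Hep-G2 libraries, stacked in bars. The FPKM bars reach 2.49 to 2.60 with siC and 3.79 to 4.50 with siI1, where APOA1 replaces APOA2 as the largest part, and in reads the part of APOB shrinks.

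Genes in and beside the 2 apolipoprotein clusters were called in part. APOA5, the remaining apolipoprotein of the chromosome 11 cluster and an activator of lipolysis, had 5.92, 7.08 and 6.79 FPKM with siC and 24.7, 30.2 and 29.9 with siI1. It was higher in all siI1 libraries (log2 fold change 2.08, limma adjusted p 1.9e-05). All 4 apolipoprotein genes there were called higher, with a median of 1.89, while of 8 genes beside them 2 were higher, 2 lower and the median 0.03. Neighbours here are genes listed around a cluster, not only adjacent ones. On chromosome 11 they reach from the start of BUD13 at 116748170 to the end of RNF214 at 117286454. These neighbour counts were near the shares over all tested genes, 21.9% higher and 23.0% lower. The same shares stand beside the neighbour counts that follow. The called neighbours were SIDT2 (0.52), ZPR1 (0.45, and 0.29 with equal sums of FPKM), PAFAH1B2 (-0.35, and -0.20 with the length trend removed) and TAGLN (-0.46).

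On chromosome 19, APOC2, the cofactor of lipoprotein lipase, had 1.62, 1.78 and 2.68 FPKM with siC and 4.50, 5.48 and 5.51 with siI1. It was called higher without overlap (log2 fold change 1.33, limma adjusted p 0.0016), though it shares exons with a readthrough transcript of at most 0.687 FPKM. APOC4 had 0 reads with siC and at most 2 with siI1 and was not tested. The 3 tested genes of the cluster were all higher, with a median of 1.39, and 4 of 8 neighbours were higher too, with 0 lower in limma (also 0 at an unadjusted p below 0.05 and with voom) and a median of 0.23. With equal sums of FPKM 1 was lower, RELB (-0.42, adjusted p 0.035). The higher ones were BCL3 (1.06), CBLC (0.97), BCAM (0.88) and CLASRP (0.34, and 0.18 with equal sums of FPKM). TOMM40, the nearest of these neighbours to APOE, and NECTIN2, on the far side of TOMM40, were not called. Without siI1 replicate 1, 7 of these neighbours were higher. Around the other members, 0 of 10 tested genes were higher in limma (also 0 at an unadjusted p below 0.05 and with voom). The 3 lower were PRKCA (-2.05) and AXIN2 (-0.36), on either side of APOH, and DNAJB14 (-1.11), past MTTP. PRKCA starts at 66302613, and APOH ends at 66256525. AXIN2 ends at 65561648, with CEP112 between it and APOH. DNAJB14 starts at 99896248, with DAPP1 between it and MTTP.

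**Figure D3:**
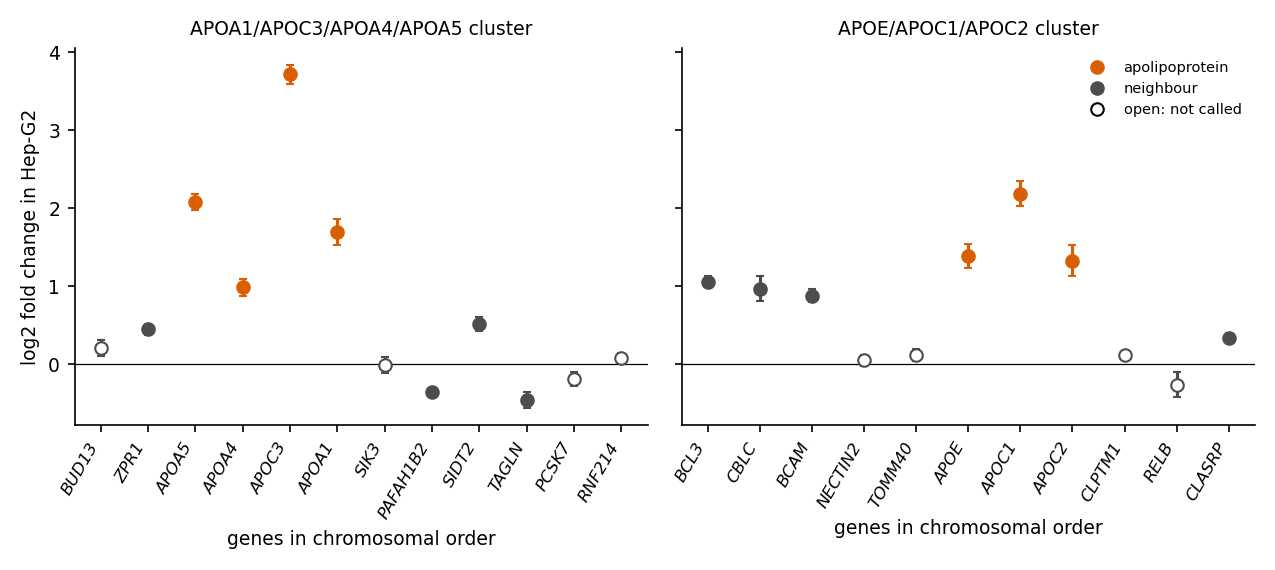
Log2 fold changes (siI1 over siC) with standard errors in Hep-G2 for the apolipoprotein genes (orange) of 2 clusters and their neighbours (grey), in chromosomal order. Filled points are called by limma and open points are not. The orange points lie between 0.99 and 3.72, above all the grey ones of the left panel, and on the right BCL3 comes closest with 1.06.

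Promoter sequences from RefSeq (GRCh38.p14) were given for 7 of the 10 members, 10 starts in all, and not for APOA1, APOB and APOC3. The 250 bases upstream were searched on both strands for letters of liver factors, namely CAAAGGTCA and CAAAGTCCA (HNF4), GTTAATNAT (HNF1) and TTGCNNAA (C/EBP), and for the TATA box TATAAA. Of all 35116 promoters, 0.339%, 0.325%, 0.723%, 9.05% and 10.7% hold these. The members' windows held 0 of the liver factor letters, and 1 of them, a MTTP start, held a TATA box on the reverse strand, 222 to 227 bases upstream. That the letters are not in these windows says nothing about the factors. Shown 5' to 3' are genes of the chromosome 19 cluster that rose together (APOE, 1 of 3 starts, at chr19:44905546-44905795, plus strand; APOC1 at chr19:44914422-44914671, plus; APOC2 at chr19:44945801-44946050, plus) and the 2 members that fell (APOA2 at chr1:161223629-161223878, minus; APOM at chr6:31655644-31655893, plus). Capitals mark the TATA box, found in APOC2 alone of these, 25 to 30 bases upstream.
APOE: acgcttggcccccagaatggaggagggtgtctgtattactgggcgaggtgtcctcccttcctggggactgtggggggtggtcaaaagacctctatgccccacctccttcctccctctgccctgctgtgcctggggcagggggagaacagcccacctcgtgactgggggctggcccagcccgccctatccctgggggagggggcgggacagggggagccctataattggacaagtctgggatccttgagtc
APOC1: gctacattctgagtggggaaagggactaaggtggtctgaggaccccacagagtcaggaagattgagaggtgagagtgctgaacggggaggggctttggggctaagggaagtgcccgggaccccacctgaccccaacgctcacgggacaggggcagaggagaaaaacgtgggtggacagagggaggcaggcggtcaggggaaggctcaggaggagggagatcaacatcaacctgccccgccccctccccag
APOC2: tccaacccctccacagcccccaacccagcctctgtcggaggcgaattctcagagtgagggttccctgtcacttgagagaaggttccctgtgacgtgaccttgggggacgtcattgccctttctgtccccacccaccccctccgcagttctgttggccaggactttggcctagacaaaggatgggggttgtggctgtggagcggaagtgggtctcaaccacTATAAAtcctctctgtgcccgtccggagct
APOA2: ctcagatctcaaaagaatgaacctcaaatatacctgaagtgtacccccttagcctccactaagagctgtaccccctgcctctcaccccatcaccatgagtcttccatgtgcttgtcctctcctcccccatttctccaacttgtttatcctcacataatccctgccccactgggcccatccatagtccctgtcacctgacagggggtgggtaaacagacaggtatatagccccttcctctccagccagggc
APOM: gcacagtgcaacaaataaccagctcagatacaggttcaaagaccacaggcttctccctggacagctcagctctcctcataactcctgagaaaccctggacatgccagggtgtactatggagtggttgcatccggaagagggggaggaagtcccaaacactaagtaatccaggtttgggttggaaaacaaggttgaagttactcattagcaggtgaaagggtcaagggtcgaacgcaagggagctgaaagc

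Each member was set beside the gene with the most similar profile. For each member, the protein-coding gene with the smallest root mean square difference in centred log2(FPKM + 0.1) over the 6 Hep-G2 libraries was sought among 10616 genes. APOB was matched by PRRC2C (0.016), APOH by SMYD3 (0.023), MTTP by IRF1 (0.026), APOE by JUND (0.030) and APOA2 by S100A6 (0.042). For APOA4 it was LIME1 (0.059), for APOA1 PDLIM1 (0.064) and for APOM B3GNT3 (0.085). UCP2, a mitochondrial carrier, was nearest to APOC1 (0.102), with APOA5 next (0.106). APOC3 had the largest distance of the members, to WFIKKN1 (0.173). The nearest of many genes lies close by selection. How near other genes lie to their own nearest gene was not measured, so these distances have no background.

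The rest of the lipoprotein system was described by lists, each beside all tested genes whose medians were 0.01 (Hep-G2) and 0.02 (BE(2)-C). List counts are to be read against the called shares of all tested genes. Those shares were 21.9% (higher) and 23.0% (lower) for Hep-G2. The BE(2)-C shares were 13.3% (higher) and 14.8% (lower). Genes that complete a count of 5 or fewer were named after their values were seen. The list of other apolipoproteins was not limited to proteins known to sit on plasma lipoproteins. Of its 13 genes tested in Hep-G2, 3 were higher and 4 lower, with a median of 0.24. The higher ones were APOA5, APOC2 and APOL1 (0.31), and the lower ones SAA4 (-1.27), APOF (-1.02), APOL6 (-0.84) and APOOL (-0.71). Without siI1 replicate 1, 5 were higher. In BE(2)-C, 4 were tested, 0 were higher (also 0 at an unadjusted p below 0.05 and with voom on reads) and 1 lower in limma, with a median of 0.03. That gene was CLU, a secreted chaperone, at 77.7, 68.3 and 70.5 FPKM with siC and 30.5, 29.6 and 29.1 with siI1. The BE(2)-C groups of CLU were far apart (log2 fold change -1.27, limma adjusted p 8.6e-05). The other genes of this list tested there were APOL2 (0.08), APOO (0.08) and APOOL (-0.01), which were not called.

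Of 19 genes of lipoprotein assembly and secretion tested in Hep-G2, 6 were higher and 9 lower, with a median of -0.14. HDLBP, the RNA-binding protein vigilin, had 78.8, 77.7 and 80.4 FPKM with siC and 21.1, 21.2 and 20.3 with siI1. P4HB, the partner subunit of MTTP, had 307, 327 and 314 with siC and 125, 152 and 153 with siI1. Both were lower in all siI1 libraries, at -1.92 (limma adjusted p 2.2e-06) and -1.15 (1.1e-04), so the transcripts of the 2 transfer protein subunits went in opposite directions. TM6SF2 (1.35, on 10 to 46 reads) and DGAT2, a triglyceride synthase (1.17), were higher, the former at 0.66 with pseudocount 1. The lower count was 5 without siC replicate 1, siC replicate 3, siI1 replicate 2 or siI1 replicate 3.

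BE(2)-C allowed tests of 17 genes of this list, of which 0 were higher and 6 lower in limma, with a median of -0.18. At an unadjusted p below 0.05, 1 was higher, SEC23A (0.25, limma adjusted p 0.05, not called), which voom on reads also called. The higher count was also 1 with a filter of FPKM 1, median centring, pseudocount 1, the replicate block and without siC replicate 3. HDLBP had 53.3, 50.6 and 52.6 FPKM with siC and 23.1, 22.4 and 22.0 with siI1, and P4HB 141, 124 and 125 against 86.9, 83.1 and 78.9. Both were lower without overlap, as seen with Hep-G2, at -1.21 (limma adjusted p 3.3e-05) and -0.65 (8.3e-04). SOAT1 (-0.46) and TMEM41B (-0.40) were also lower. SOAT1 was not called without siC replicate 2 or 3 or siI1 replicate 2 or 3 (adjusted p 0.058 to 0.073), nor TMEM41B without siC replicate 2 or 3 or siI1 replicate 1 or 2 (0.067 to 0.088). SOAT1 was also not called with the replicate block (0.056), nor TMEM41B with equal sums of FPKM (0.05) or no mean-variance trend (0.053). The lower count was 3 without siC replicate 3 or siI1 replicate 2.

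Genes of HDL formation and of remodelling in plasma were mostly higher in Hep-G2, 8 of 11 tested against 1 lower, with a median of 1.14. ANGPTL4, an inhibitor of lipoprotein lipase, had 0.545, 0.473 and 0.683 FPKM with siC and 3.37, 3.90 and 4.61 with siI1, on 16 to 153 reads. Its siI1 libraries were all far above siC (log2 fold change 2.61, limma adjusted p 6.5e-05). ANGPTL8 (1.95) and the lipid transfer proteins CETP (1.67, on 4 to 42 reads) and PLTP (1.56) were higher as well. With pseudocount 1, ANGPTL4 was at 1.66 and CETP at 0.71, still called. PON3 was the 1 lower gene (-0.19), a call lost without any library other than siI1 replicate 1, and in 5 other settings (voom, median centring, no filter, no mean-variance trend and the length trend removed). Of the same list, 6 genes were tested in BE(2)-C, with a median of 0.03. PLTP (0.97) and ABCA1 (1.22, on 1 to 38 reads) were higher and LCAT (-1.51, on 2 to 20 reads) lower. ABCA1 passed the filter through its siI1 libraries alone, with at most 0.0275 FPKM in siC, and its log2 fold change was 0.21 with pseudocount 1 and 2.75 with pseudocount 0.01, not called in either or with the replicate block, and 3.16 with voom, called. LCAT passed through its siC libraries, and of siI1 only replicate 3 reached 0.1 FPKM (0.110). With 2 to 4 siI1 reads, LCAT ran from -0.39 (pseudocount 1) to -2.27 (pseudocount 0.01), called in both. The call of ABCA1 was also lost when any 1 of the 6 libraries was left out (adjusted p 0.063 to 0.12).

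All 7 receptor genes and receptor regulators tested in Hep-G2 were called, 4 higher and 3 lower, with a median of 0.42. The HDL receptor SCARB1 had 26.7, 27.0 and 28.2 FPKM with siC and 63.2, 63.0 and 64.3 with siI1, and LRP8, which binds APOE, 3.05, 2.81 and 2.84 against 0.901, 0.730 and 0.656. The former was higher and the latter lower in every siI1 library, at 1.22 (limma adjusted p 7.8e-06) and -1.81 (1.3e-04, and -1.15 with pseudocount 1). LRP1 (0.47), LRPAP1 (0.45) and VLDLR (0.42) were higher, and MYLIP (-0.90) and LSR (-0.43) lower. With equal sums of FPKM 2 were higher, as LRP1 (0.31, adjusted p 0.072) and VLDLR (0.26, 0.14) were not called, and VLDLR was not called without siC replicate 3 (0.40, 0.052). LRP1 was at 0.78 with the length trend removed.

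Of 7 receptor genes tested in BE(2)-C, 4 were higher and 1 lower, and the median was 0.21. MYLIP, at 1.26, 1.23 and 1.51 FPKM with siC and 2.20, 2.31 and 2.37 with siI1, was higher without overlap and thus opposite to Hep-G2 (0.74, limma adjusted p 0.0046). LRP1 (0.61), VLDLR (0.59) and LRPAP1 (0.21) were also higher, and LSR (-0.67) lower. LRP1 was not called without siC replicate 3 or siI1 replicate 1 or 2 (adjusted p 0.054 to 0.069), nor VLDLR without siC replicate 3 or any 1 siI1 library (0.067 to 0.097), nor LRPAP1 without siC replicate 2 or 3 or siI1 replicate 1 or 3, nor LSR without any library but siC replicate 1 (0.064 to 0.12). Other settings ended the calls of LSR (length trend removed, no filter, no mean-variance trend and replicate block, 0.06 to 0.092) and VLDLR (no filter, 0.057). Removing the length trend also ended the calls of LRP1 (0.072) and LRPAP1. With pseudocount 1 VLDLR was at 0.34 and LSR at -0.42. The higher count was 1 without siC replicate 3 or siI1 replicate 1 and 2 without siI1 replicate 2 or 3 or with the length trend removed.

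Among 23 transcription factors and coregulators of apolipoprotein genes in Hep-G2, 11 were higher and 6 lower, with a median of 0.21, and 7 were higher with equal sums of FPKM. Over all tested genes, 21.9% were higher and 23.0% lower. HNF4A, a main activator of these genes in liver, had 41.7, 43.0 and 44.1 FPKM with siC and 48.7, 49.2 and 51.6 with siI1. The siI1 libraries were slightly above siC (log2 fold change 0.21, limma adjusted p 0.012), a call lost without siC replicate 1 (0.19, 0.055) with equal sums of FPKM (0.05, 0.45) and with no mean-variance trend (0.055), and 0.37 with the length trend removed. CEBPA had 44.2, 46.3 and 46.3 FPKM with siC and 153, 169 and 173 with siI1, a clear separation (1.85, limma adjusted p 5.1e-06). NR0B2, a corepressor of nuclear receptors, went from 79.9, 94.7 and 86.6 to 21.0, 23.5 and 22.9. It was lower in every siI1 library (-1.95, limma adjusted p 9.5e-06). SREBF2 (1.04) was higher and PPARGC1A (-1.12, and -0.55 with pseudocount 1) lower.

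Of these regulators, 13 were tested in BE(2)-C, where 3 were higher and 5 lower, and the median was -0.26. CEBPA had 1.38, 1.22 and 1.36 FPKM with siC and 0.418, 0.376 and 0.356 with siI1, lower in all siI1 libraries and thus opposite to Hep-G2 (-1.55, limma adjusted p 8.8e-04, and -0.74 with pseudocount 1). SREBF1 (-0.95), NR1H3 (-0.82), CEBPB (-0.76) and RXRA (-0.45) were lower, and PROX1 (0.67), NR2F1 (0.51) and NR2F2 (0.22) higher. In Hep-G2, PROX1 (-0.45) and NR2F1 (-0.51) were called lower. NR1H3 was called only with all libraries or without siC replicate 3 (adjusted p 0.073 to 0.13 without another), and 5 other settings ended its call. HNF4A had 0 reads in all BE(2)-C libraries.

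**Figure D4:**
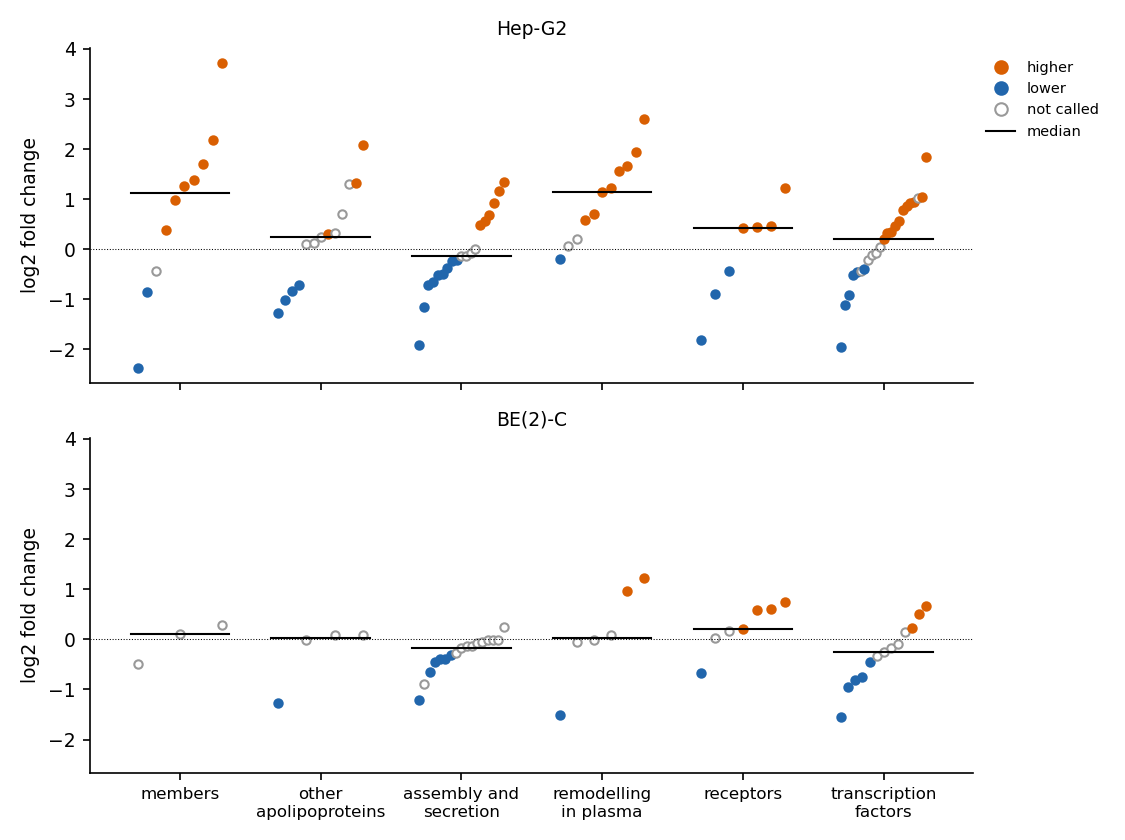
Log2 fold changes (siI1 over siC) of every tested gene of 6 lists in Hep-G2 (top) and BE(2)-C (bottom), with orange for higher, blue for lower, open points for genes not called and black lines for medians. The members (median 1.13) and the remodelling genes (median 1.14) lie mostly above 0 in Hep-G2, while receptors and transcription factors spread to both sides.

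Marker genes describe the cells. All 10 hepatocyte and hepatoblast markers were expressed in Hep-G2, and their FPKM summed to 7260, 7204 and 7184 with siC and 10839, 11866 and 11817 with siI1. Albumin (ALB) was the most abundant, and the siI1 sums were all above siC. Of the 10, 6 were higher and 3 lower, with TF (1.93), AHSG (1.04) and ALB (0.95) up and AFP (-0.59), FGG (-0.68) and TTR (-0.77) down. In bulk RNA, fewer cells of a type and less RNA per cell cannot be told apart. The 9 neuroblast markers summed to at most 0.269 FPKM there, with DBH most abundant and HAND2, ISL1, CHGA, STMN2 and ELAVL4 at 0. The 8 leukocyte markers summed to 0.769, 0.948 and 0.707 with siC and 5.08, 2.39 and 2.98 with siI1, with CD14 most abundant. The 7 stromal markers reached at most 2.05, with PDGFRB most abundant. The 6 enterocyte markers summed to 54.9, 51.7 and 55.5 with siC and 89.4, 83.2 and 82.8 with siI1, mostly from VIL1.

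In BE(2)-C, the hepatocyte markers summed to at most 0.0545 FPKM, with SERPINA1 most abundant and AFP, AHSG, FGA, FGB and FGG at 0. The neuroblast markers summed to 3776, 3552 and 3574 with siC and 3994, 3877 and 3955 with siI1, with MYCN most abundant and not called. Of these, CHGA and STMN2 were higher and PHOX2A, HAND2 and DBH lower. Leukocyte markers came to at most 2.45, mostly CD14, with PTPRC, AIF1 and ITGAM at 0. Stromal markers came to 29.3, 25.3 and 29.5 with siC and 37.0, 38.3 and 36.2 with siI1. PDGFRB had the highest mean (16.0) and was not called, while LUM, DCN and PDGFRA were higher. Enterocyte markers reached at most 0.361, all from VIL1, and FABP2, ALPI, SI, CDX2 and LCT were at 0.

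Most members were near the limit of detection in BE(2)-C. APOC1 was the most abundant there, at 3.90, 4.56 and 2.85 FPKM with siC and 2.79, 4.48 and 4.97 with siI1, on 49 to 85 reads. APOE had 1.21, 0.676 and 0.359 with siC and 0.413, 0.323 and 0.657 with siI1, on 10 to 38 reads. The groups of both genes overlapped and neither was called (limma, 0.10, adjusted p 0.81, and -0.50, adjusted p 0.42). APOM passed the filter on at most 4 reads per library and was not called (0.29, limma adjusted p 0.69). APOA2 and APOH had 0 reads in all 6 libraries, and APOA1, APOA4, APOB, APOC3 and MTTP had 0 to 4 reads per library and were not tested. A count of 0 allows up to 3 reads. At an unadjusted p below 0.05, limma and voom, limma's method for reads, each gave 0 of the 3 tested members. Together the members took 0.00186%, 0.00191% and 0.00118% of the FPKM with siC and 0.00113%, 0.00192% and 0.00208% with siI1, with overlap (exact permutation p 0.7).

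The knockdown effect was compared between the cell lines by limma's interaction test over all 12 libraries. The siRNA concentration was not the same in the 2 lines, being higher for BE(2)-C, so line and dose cannot be told apart. For APOC1 the log2 fold change was 2.10 greater in Hep-G2 (standard error 0.32, adjusted p 3.7e-04), and for APOE 1.90 greater (standard error 0.44, adjusted p 0.0054). APOM differed by -2.65 (standard error 0.48, adjusted p 0.0011), on few BE(2)-C reads, and by -1.55 with pseudocount 1. The fall of IGF2BP1 itself was not found to differ (0.02, standard error 0.09, adjusted p 0.91), but it was called different with the length trend removed (0.26, adjusted p 0.0053), an alternative chosen after seeing the data.

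**Figure D5:**
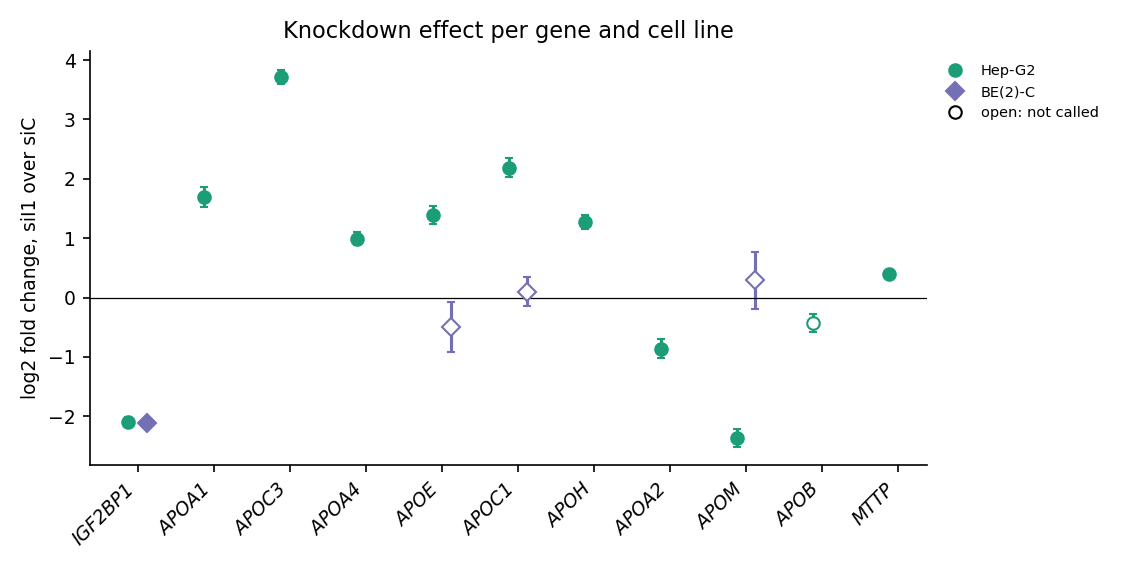
Log2 fold changes (siI1 over siC) with standard errors of IGF2BP1 and the members in Hep-G2 (green circles) and BE(2)-C (purple diamonds), for genes tested in that line. Filled points are called by limma, open points are not. IGF2BP1 lies at -2.10 and -2.11, while the 3 members tested in BE(2)-C stay within 0.50 of 0.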

How the data were processed

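Poly-A RNA of 12 libraries was measured by RNA-seq, with 3 libraries per group. The authors clipped reads with Cutadapt 1.14, aligned them to hg38 with HISAT2 2.1.0, counted them per gene with featureCounts 1.5.3 and scaled and tested each cell line with edgeR 3.30.3. The deposited library columns hold FPKM scaled by TMM, a unit taken from the values, since the header names none. The authors' log2 fold changes, p-values and FDR in the same deposited tables were not used. The deposited FPKM, multiplied by gene length, were whole multiples of 1 step per library (100% of nonzero values within 0.001), from which reads per gene were recovered.

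Groups came from the column names. limma 3.58.1 (R 4.3.3) with a mean-variance trend compared siI1 with siC on log2(FPKM + 0.1), per table, for genes with FPKM of at least 0.1 in 3 of 6 libraries, with Benjamini-Hochberg adjustment over all tested genes and a threshold of 0.05. An interaction contrast over the 12 libraries compared the lines. The fits were tested on simulated data first. Shares were compared by exact permutation in SciPy 1.17.1. Tables and plots were made with Python 3.11.15, NumPy 2.4.6, pandas 2.3.3 and Matplotlib 3.10.9. Gene positions are those of GENCODE on hg38.

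Named genes are all members, IGF2BP1, HNF4A, HDLBP, P4HB, up to 4 called genes per role list and cell line with the largest absolute log2 fold change and groups that did not overlap, neighbours of the members and their clusters, and the gene nearest in profile to each member. Some genes of the planned lists are not reported here, and the rule, counts, medians and sums were taken without them. The members and lists were chosen with earlier results of these data known. Reads on genes numbered 13465944 to 15176939 (median 14592537) in Hep-G2 siC, 13398903 to 14858343 (13838226) in Hep-G2 siI1, 12852988 to 14662575 (13872286) in BE(2)-C siC and 13649325 to 15721210 (13920803) in BE(2)-C siI1. Intervals of counting error were not given for FPKM, and the floor of 3 reads covers counting error only. Alternatives covered the pseudocount (0.01 and 1), the filter (none, or FPKM of at least 1), median centring, equal sums of FPKM, the trend, a replicate block, voom on recovered reads, each library left out and, chosen after seeing the data, removal of a length trend.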

Additional observations from a re-analysis of the deposited data

Results flagged for a closer look

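Of 59 named genes tested in both cell lines, 41 had a knockdown effect that differed between Hep-G2 and BE(2)-C by limma's interaction test (adjusted p below 0.05, n = 3 libraries per group), against 40.2% of all 15362 genes tested in both. Many of the 59 were named for large changes or for likeness to a member, which favours such differences. Values are the log2 fold change in Hep-G2 minus that in BE(2)-C. Among the members these were APOC1 (2.10), APOE (1.90) and APOM (-2.65). All 3 were called in Hep-G2 and not in BE(2)-C, where they had at most 85 reads per library.

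Some genes were called in both lines with opposite signs. CEBPA (3.40), LCAT (2.73) and NR1H3 (1.61) rose with knockdown in Hep-G2 but fell in the neuroblastoma line, and MYLIP did the reverse (-1.64). The BE(2)-C call of NR1H3 was lost in 5 of 6 fits without 1 library and in 5 other settings. LCAT reached 0.1 FPKM in all BE(2)-C siC libraries but, of the siI1 libraries, only in replicate 3 (0.110). Its difference was 1.53 with pseudocount 1. Others were called in the same direction in both, but by different amounts. HDLBP (-0.71) and P4HB (-0.50) fell further in Hep-G2, and PLTP (0.59) rose further there.

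The remaining role-list genes among these 41 were called in 1 line with the chosen settings. In Hep-G2 these were ANGPTL4 (2.53), TM6SF2 (1.39), DGAT2 (1.35), SREBF2 (1.21), SCARB1 (1.20), PPARGC1A (-0.78) and LRP8 (-1.97). In BE(2)-C they were CLU (1.51), CEBPB (0.80), SREBF1 (0.73) and ABCA1 (-1.02). The difference was no longer called for TM6SF2 in 7, PLTP in 8 and PPARGC1A in 3 of the 12 fits that left out 1 library, with values of 1.05 to 1.63, 0.47 to 0.72 and -0.90 to -0.68. Other settings ended it for TM6SF2 (2 settings), PLTP (3), PPARGC1A (1) and ABCA1, which was at -0.03 (adjusted p 0.92) with pseudocount 1. ABCA1 could be tested in BE(2)-C through its siI1 libraries alone, and its call there was lost in all 6 fits without 1 library. Some were called in the other line too under alternatives. CLU was higher in Hep-G2 without siI1 replicate 1 (0.35, adjusted p 0.001) and in 3 other settings, ABCA1 higher there with the length trend removed (0.42, 0.011), and SREBF1 lower there with equal sums of FPKM (-0.38, 0.0043), voom (0.048) and a filter of FPKM 1. SREBF2 was lower in BE(2)-C with voom (0.012) and without siC replicate 2 (-0.25, 0.019), and PPARGC1A with voom (0.046) and no mean-variance trend (0.041).

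Neighbours of the members and the genes nearest to them in profile differed too. The latter were picked for their Hep-G2 values. Called in both lines with opposite signs were ZPR1 (0.71), JUND (2.25) and SMYD3 (1.59), higher in Hep-G2, and TAGLN (-1.58) and PRRC2C (-0.59), lower there. The BE(2)-C calls were lost in 5 of 6 fits without 1 library for ZPR1 and PRRC2C and in 4 for SMYD3, and the Hep-G2 call of PRRC2C in 4 of 6 and in 5 other settings. Other settings ended the BE(2)-C calls of ZPR1 (2 settings), PRRC2C (3) and SMYD3 (1). PRKCA (-1.22) fell further in Hep-G2 and UCP2 (1.67) rose further there. Called in Hep-G2 alone were WFIKKN1 (3.52), BCL3 (1.29), LIME1 (1.10), IRF1 (1.02), BCAM (0.92), CLASRP (0.48), SIDT2 (0.36), PAFAH1B2 (-0.46) and DNAJB14 (-1.16), and in BE(2)-C alone NECTIN2 (0.82), BUD13 (0.65) and CLPTM1 (0.41). These 3 were also called higher in Hep-G2 without siI1 replicate 1 (0.12, 0.33 and 0.15), and CLPTM1 in 2 other settings. IRF1 lost its Hep-G2 call in 3 of 6 fits without 1 library, with equal sums of FPKM (adjusted p 0.2) and with the replicate block (0.053), and it was called lower in BE(2)-C with voom (-0.86, 0.018). PAFAH1B2 was called higher in BE(2)-C with median centring (0.14, 0.046). RELB (-1.08) was called in neither, except lower in Hep-G2 with equal sums of FPKM (-0.42, 0.035) and higher in BE(2)-C with voom (0.94, 0.019) and without siC replicate 1 (1.05, 0.042). The difference was no longer called for SIDT2 in 8 and RELB in 1 of the 12 fits that left out 1 library, with values of 0.29 to 0.43 and -1.31 to -0.86, and for SIDT2 in 2 other settings.

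Some differences stayed called but moved by over 1.5 times. With pseudocount 1 these were APOM (-1.55), TM6SF2 (0.66), ANGPTL4 (1.61), LCAT (1.53), LRP8 (-1.28), PPARGC1A (-0.40), RELB (-0.56), LIME1 (0.63), WFIKKN1 (2.23), IRF1 (0.46) and also TAGLN, nearer 0, and ABCA1 was at -2.55 with pseudocount 0.01. With the length trend removed they were HDLBP (-0.38), CEBPB (0.47), BUD13 (0.37), PAFAH1B2 (-0.29), SIDT2 (0.61) and PRRC2C (-0.23), and with equal sums of FPKM CLPTM1 (0.22) and CLASRP (0.30). No cause of these differences was tested.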

How the results depend on the processing

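In Hep-G2, the 10 members kept their direction under all 10 other settings and in all 6 fits without 1 library. The counts were 6 to 7 higher and 2 to 3 lower. MTTP was not called with equal sums of FPKM (0.23, adjusted p 0.12). APOB was called lower with a filter of FPKM 1 (adjusted p 0.035), equal sums of FPKM (-0.60, 0.028), voom (0.0072), the replicate block (0.014) and without siI1 replicate 1 (-0.58, 0.0041), and its adjusted p ran up to 0.11 elsewhere. The cause was not tested.

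Equal sums of FPKM moved the calls over all Hep-G2 genes from 4250 higher and 4463 lower (48.8% higher) to 3211 and 5835 (35.5% higher). Over settings, Hep-G2 gave 3211 to 5015 higher genes and BE(2)-C 2070 to 3201. Leaving out 1 library gave 1519 to 2103 higher genes in BE(2)-C against 2489, with fewer libraries in the fit, and 0 members called in every setting. The interaction was run in 7 other settings, without voom or the filters, and in 12 fits without 1 library, and was called for all 3 members in each.

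The members' share of Hep-G2 FPKM was 1.68 percentage points greater with siI1, and 0.695 in reads, where long genes weigh more. Without 1 library it was 1.54 to 1.90.

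Signs of named genes changed for values that were called neither with all libraries and the chosen settings nor in the setting that turned them. In Hep-G2, equal sums of FPKM gave CEBPB -0.12, RNF214 -0.09, NECTIN2 -0.12, TOMM40 -0.04, CLPTM1 -0.05, TOMM40L -0.04 and C6orf47 -0.06. Removing the length trend, chosen after seeing the data, gave CEBPB -0.14, SIK3 0.20, PCSK7 0.12 and C6orf47 -0.01, and median centring gave SIK3 0.08. Without 1 library CEBPB ran from -0.04 to 0.12, SIK3 from -0.08 to 0.05 and C6orf47 from -0.08 to 0.22.

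In BE(2)-C, removing the length trend gave TM6SF2 0.09, SCARB1 -0.01, NR1I3 0.07, DNAJB14 -0.06 and LIME1 0.03. Pseudocount 1 gave TM6SF2 0.00 and WFIKKN1 -0.00, and median centring NR1I3 0.02. Without 1 library the ranges were -0.09 to 0.34 for APOC1, -0.03 to 0.69 for APOM, -0.29 to 0.30 for TM6SF2, -0.17 to 0.29 for ANGPTL4, -0.03 to 0.07 for SCARB1, -0.19 to 0.08 for BCAM, -0.02 to 0.08 for TOMM40, -0.23 to 0.16 for NR1I3, -0.04 to 0.10 for DNAJB14, -0.21 to 0.06 for LIME1 and -0.11 to 0.13 for WFIKKN1.

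The difference between lines turned with equal sums of FPKM for IGF2BP1 (-0.17), TMEM41B (-0.02) and TOMM40 (-0.08), and with pseudocount 1 for IGF2BP1 (-0.08), LRP1 (0.04) and CEP112 (0.06). It turned with the length trend removed for LRP1 (0.33), VLDLR (0.07), SIK3 (0.17), PCSK7 (0.36), CEP112 (0.12) and C6orf47 (-0.01). That of IGF2BP1 was 0.26 (adjusted p 0.0053) with the length trend removed. Without 1 library IGF2BP1 ran from -0.06 to 0.06 and CEP112 from -0.27 to 0.07. The causes were not tested.

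The sources used here do not say whether same-numbered siC and siI1 libraries were handled together. Their deviations from the group means correlated at 0.06, 0.04 and -0.01 (Hep-G2) and at 0.02, -0.01 and -0.00 (BE(2)-C) across genes, which are not independent replicates. With 3 libraries per group, and deviations that also follow gene length, these values cannot decide whether libraries were paired. With the replicate block, Hep-G2 had 4318 genes higher and 4502 lower, among them 7 and 3 members, and BE(2)-C 2141 and 2531.

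Over all named genes tested, 1175 of 1245 values in Hep-G2 under these alternatives kept direction and call, as did 827 of 930 in BE(2)-C and 1060 of 1121 differences between lines. In Hep-G2, 29 lost a call, 23 gained one and 18 changed sign. The numbers were 68, 10 and 25 in BE(2)-C and 36, 10 and 15 for the differences. Many of these genes were named for large called changes or for likeness to a member, which favours calls that hold. Depth limits APOM, APOA4 and all members in BE(2)-C, where a 0 allows up to 3 reads. FPKM gives RNA levels only. These libraries measure neither protein, secretion, lipid content nor RNA decay, and they do not test a direct effect of IGF2BP1 on a transcript. All siI1 libraries used the same siRNA pool, so effects of the pool other than on IGF2BP1 cannot be told apart.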
